A study of Homo sapiens with 10 samples.

Results

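The genes described here are 40 genes of ribosome assembly and of the MYC network, chosen by gene symbol, and 34 of them carry a value on the array out of 17687 genes measured. They were followed in 2 established lines of human prostate cancer cells deprived of arginine. Arginine-free medium alone was the starved condition, and control medium was the same medium with arginine added back at 200 mg/L. In PC3 cells, an androgen-independent line, 2 arrays were made of cells starved for 48 h and 2 of cells kept in control medium for 48 h. In CWR22Rv1 cells, a castration-resistant line, a time course had 1 array of a culture taken as 0 h, which the labels give as 24 h in control medium, 1 array after 24 h and 1 array after 48 h of starvation. By these labels the 48 h array is set against a shorter culture, so starvation and time in culture cannot be told apart in that comparison. A separate CWR22Rv1 experiment had 1 array of cells starved for 48 h with 5 mM dimethyl α-ketoglutarate (DMKG), a cell-permeable form of α-ketoglutarate, 1 array of cells starved for 48 h, and 1 array of cells in control medium for 48 h. The series thus holds 10 arrays, each line is a single model, and the labels do not say whether arrays of a group came from separate cultures. A p-value here therefore speaks of the spread between these arrays, which may be technical.

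Ribosome biogenesis starts in the nucleolus, where RNA polymerase I transcribes the ribosomal DNA and a large set of assembly factors modifies, cleaves and folds the precursor into the small and large subunits. It is among the costliest processes of a growing cell and depends on amino acids. MYC is a transcription factor that, paired with MAX, binds the E-box motif CACGTG and is known to drive RNA polymerase I factors and assembly factors, while MXD1 competes for MAX and represses the same motif. MYC is often raised in prostate cancer.

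The E-box was looked up in the members' promoters, since MYC with MAX and MXD1 with MAX are known to bind it. RefSeq windows of GRCh38.p14, 250 bases before to 50 bases after a transcript start, were found for 34 of the 40 members, and 15 of the 34 (44.1%) held CACGTG, which reads the same on either strand. The share was 8.77% of 27305 genes with a window and 10.8% of the 14250 that also had a value on the array. Over the 250 bases before the start alone it was 14.7% for members and 7.73% for all genes. In all, 16 E-boxes were found and 14 began within 36 bases of the start, 9 of the 16 beginning after it. The sites are shown for the 7 members named by the rule of this work that held an E-box, each as 30 bases read 5′ to 3′ on the gene's strand with the E-box in capitals.
NOP14 (chr4:2963374-2963403, minus strand): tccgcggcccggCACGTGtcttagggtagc
PES1 (chr22:30591880-30591909, minus strand): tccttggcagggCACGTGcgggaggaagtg
DDX21 (chr10:68956604-68956633, plus strand): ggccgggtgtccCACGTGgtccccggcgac
NOP10 (chr15:34343289-34343318, minus strand): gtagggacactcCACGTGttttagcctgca
NOP10 (chr15:34343130-34343159, minus strand): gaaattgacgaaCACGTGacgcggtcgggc
LYAR (chr4:4290068-4290097, minus strand): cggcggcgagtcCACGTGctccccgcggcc
GAR1 (chr4:109815781-109815810, plus strand): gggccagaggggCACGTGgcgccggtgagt
FBL (chr19:39846356-39846385, minus strand): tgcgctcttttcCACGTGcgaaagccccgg
The sites of NOP14, NOP10 and FBL lie by the outermost RefSeq start of the gene, while those of LYAR, GAR1, DDX21 and PES1 lie by a start 133, 252, 477 and 15103 bases inside it. NOP10 was the only member with 2 E-boxes, and the 250 bases before its start (chr15:34343137-34343386, minus strand) are given with both in capitals.
NOP10: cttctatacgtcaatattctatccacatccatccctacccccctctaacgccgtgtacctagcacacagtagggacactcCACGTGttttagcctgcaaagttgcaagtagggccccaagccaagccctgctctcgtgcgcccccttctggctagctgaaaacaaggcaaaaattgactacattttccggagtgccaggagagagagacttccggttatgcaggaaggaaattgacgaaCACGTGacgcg
A match is a description of the letters only. Of members with a value and a window, the E-box stood in 3 of the 8 that rose in PC3 cells and in 10 of the 21 that did not pass the test there.

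**Figure D1:**
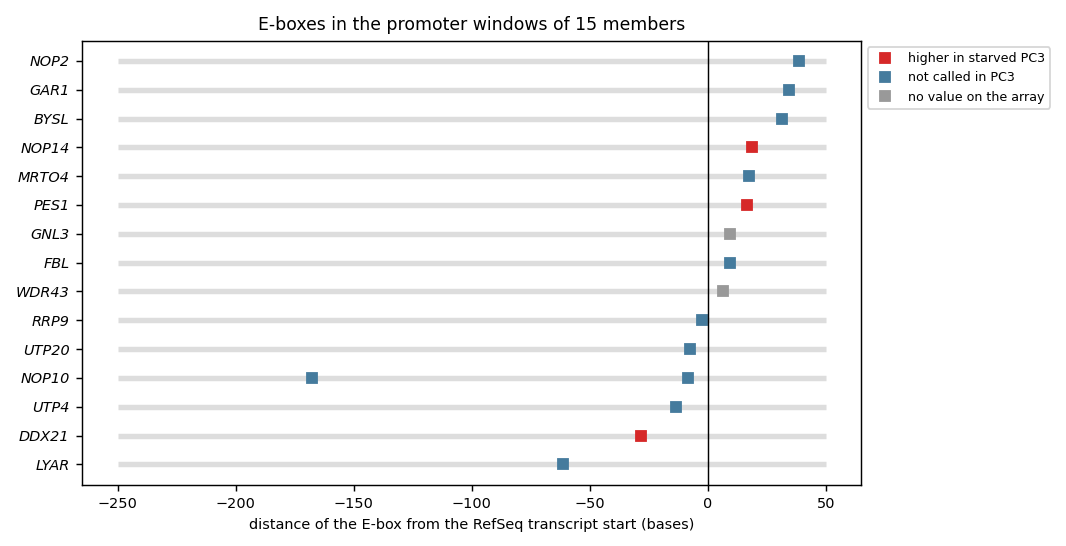
Position of each E-box, as its distance in bases from the RefSeq transcript start (vertical line), in the promoter windows of 15 members (grey bars, 250 bases before to 50 after the start). Red squares are members that rose in starved PC3 cells, blue squares members not called there and grey squares members with no value on the array. Each square marks the middle of an E-box, and 14 of the 16 E-boxes begin within 36 bases of the start.

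All values are log2 expression as deposited. Medians of the arrays lay between 6.17 and 6.95 and those of their negative control probes between 3.30 and 4.04. The tests compared values only inside each of 3 sets of arrays (PC3 cells, the DMKG experiment, the time course). The sources do not say whether levels were set on a common scale across these sets. Levels given side by side across sets carry no test. Of the 34 members, 6 lay under the 95th percentile of the negative controls on some array (RRP12 on all 10, POLR1B and NOP2 on 7, MXD1 on 2, UTP20 and RRP9 on 1). The cell lines differed in their known markers, with VIM, CAV1 and AXL at 12.0 to 15.2 in PC3 cells and 4.79 to 6.39 in CWR22Rv1 cells, while KLK2 reached 9.08 in CWR22Rv1 cells and at most 4.62 in PC3 cells. HOXB13, of the same luminal list, did not separate them, at 12.06 and 11.82 in control PC3 cells and 10.16 and 11.44 in control CWR22Rv1 cells. KLK3, at 6.19 to 7.83 in CWR22Rv1 cells, lay close to the 95th percentile of the negative controls. Of 5 markers of blood, endothelial and stromal cells, PTPRC, PECAM1, DCN and COL1A1 were at most 5.47 on any array and COL1A2 was at 6.67 to 8.81, and none was called at 48 h. In bulk RNA, fewer cells of a type and less RNA per cell cannot be told apart. Of 6 starvation-response genes, all 6 rose in PC3 cells and 3 (ASNS, CHAC1, ATF3) in CWR22Rv1 cells. CHAC1 was 14.34 in starved cells and 12.48 in control cells of the time course, against 12.90 in starved cells and 6.56 in control cells of the DMKG experiment. As deposited, the control of the time course also had TRIB3 at 13.17, against 9.75 in the control of the DMKG experiment, and KLK2 at 6.54, against 9.08. Its part in the results was not tested beyond leaving that array out, and CWR22Rv1 results are given for each experiment. In the DMKG experiment 7846 of 17687 genes (44.4%) had exactly the same value on 2 or all of its 3 arrays, against 36 genes in the time course and 13 in PC3 cells. This held for 7 members, MRTO4, GAR1 and NOP14 (starved with and without DMKG), NHP2, BYSL and NOP2 (DMKG and control) and UBTF (starved and control). The cause was not tested.

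PC3 cells starved for 48 h had more mRNA for MYC, for its partner MAX and for its antagonist MXD1, and for 8 of 31 measured assembly members. In all, 11 of 34 members rose and 0 fell by limma at an adjusted p under 0.05, where 9.59% of all genes rose and 10.0% fell. Without the adjustment, at a p under 0.05, 16 members were higher and 2 lower. Shares of all genes are given here for adjusted calls only, so unadjusted counts have none to be set against. The members' median log2 difference was 0.34, against 0.02 over all genes, and 24 of the 34 differences were positive. Of the 11, RRP12 was under the 95th percentile of the negative controls on every array, and 10 rose without it. The remaining members were not uniform, and LYAR was the lowest at -0.82, just outside the threshold. Of the cell identity markers HOXB13 fell by 2.85 (adjusted p = 0.000441) and KRT8 by 1.03 (0.0177) in starved PC3 cells and CD44 rose by 0.99 (0.0176), and their part in the members' values was not tested.

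MYC measured 14.72 and 14.75 in starved PC3 cells, against 13.04 and 13.04 in control PC3 cells. The arrays of each condition lay within 0.03 of each other. The log2 difference was 1.70 (standard error 0.22, 3.24-fold, adjusted p = 0.00164 from limma). MXD1 measured 10.89 and 11.06 in starved PC3 cells, against 7.79 and 7.23 in control PC3 cells, where it lay under the 95th percentile of the negative controls. It was thus at least 8.77-fold higher in starved cells, the mean of the 2 percentiles standing in for the control level (fitted log2 difference 3.46, adjusted p = 0.000105). MAX measured 13.20 and 13.47 in starved PC3 cells, against 12.51 and 12.54 in control PC3 cells, a smaller rise of 0.81 (standard error 0.18, adjusted p = 0.0184). All 3 measured members of the MYC network thus rose in PC3 cells, the activator and the repressor alike.

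Among the 4 genes of RNA polymerase I, only RRN3, the initiation factor TIF-IA that brings the polymerase to the ribosomal DNA promoter, rose in PC3 cells. It measured 13.07 and 13.22 in starved PC3 cells, against 11.37 and 11.46 in control PC3 cells, a difference of 1.73 (standard error 0.19, 3.32-fold, adjusted p = 0.000911). The catalytic subunits POLR1A and POLR1B and the upstream binding factor UBTF had differences of -0.34, 0.25 and 0.17 and did not pass the test.

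The nucleolar proteins split in PC3 cells. DDX21, an RNA helicase that links polymerase I transcription to rRNA processing, measured 15.40 and 15.62 in starved PC3 cells, against 14.38 and 14.55 in control PC3 cells, a rise of 1.04 (standard error 0.19, adjusted p = 0.00707). LYAR, a nucleolar zinc finger protein, lay the other way, at 10.29 and 10.60 in starved PC3 cells, against 11.26 and 11.26 in control PC3 cells (difference -0.82, adjusted p = 0.0515). The abundant chaperones nucleolin (NCL) and nucleophosmin (NPM1), at 0.36 and -0.10, and NOLC1, at 0.03, did not pass.

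Of the proteins bound to small nucleolar RNAs, which guide rRNA modification, NOP58 of the box C/D particles measured 14.81 and 14.92 in starved PC3 cells, against 13.39 and 13.41 in control PC3 cells. It rose by 1.47 (standard error 0.19, 2.76-fold, adjusted p = 0.00182), while the methyltransferase of the same particle, FBL, had a difference of -0.19 and did not pass. The 3 measured proteins of the box H/ACA particles, which carry out pseudouridylation, were at 0.67 for GAR1, -0.48 for NHP2 and 0.31 for NOP10, none past the threshold.

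Among 8 small-subunit factors, NOP14 and UTP15 rose in PC3 cells, and RRP12 passed the test at levels under the 95th percentile of the negative controls. NOP14, a component of the small-subunit processome, measured 11.90 and 11.74 in starved PC3 cells, against 10.43 and 10.23 in control PC3 cells (difference 1.49, standard error 0.28, adjusted p = 0.00824). UTP15, a processome protein of the complex that meets the nascent transcript, measured 10.08 and 10.52 in starved PC3 cells, against 9.59 and 9.38 in control PC3 cells, with a difference of 0.81. RRP12, a factor of subunit export, measured 7.83 and 7.44 in starved PC3 cells, against 6.59 and 6.71 in control PC3 cells, under the 95th percentile of the negative controls on every array, so that its call (adjusted p = 0.0108) comes with no size. The other 5 (UTP4, UTP20, HEATR1, RRP9, BYSL) ranged from -0.26 to 0.28. Among 9 large-subunit factors, PES1, of the PeBoW complex, measured 12.10 and 12.25 in starved PC3 cells, against 11.32 and 11.49 in control PC3 cells (difference 0.77, adjusted p = 0.0383). NOP16 measured 13.36 and 13.66 in starved PC3 cells, against 12.71 and 12.80 in control PC3 cells (difference 0.76, adjusted p = 0.0268). WDR12, the partner of PES1 in the same complex, was at 0.50 and did not pass, and neither did the other 6 (RRP1, RRS1, NIP7, MRTO4, NOP2, GRWD1), at -0.36 to 0.73.

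The count of 11 depended on single arrays, but 4 members, MYC, MXD1, RRN3 and NOP58, kept their call whichever array was left out. Without control replicate 1 of PC3 cells 5 members rose, MAX, DDX21, UTP15, RRP12, PES1 and NOP16 being lost at adjusted p = 0.054 to 0.171 from limma. Without control replicate 2 it was 6, with MAX, UTP15, NOP14, PES1 and NOP16 lost at 0.055 to 0.147. Without starved replicate 1 it was 7, with NOP14, RRP12, PES1 and NOP16 lost at 0.052 to 0.103, and without starved replicate 2 it was 6, with MAX, DDX21, UTP15, PES1 and NOP16 lost at 0.057 to 0.170. In each of these fits a group held 1 array and the share of all genes that rose fell too, so the losses are not particular to the members. No member that rose changed direction.

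**Figure D2:**
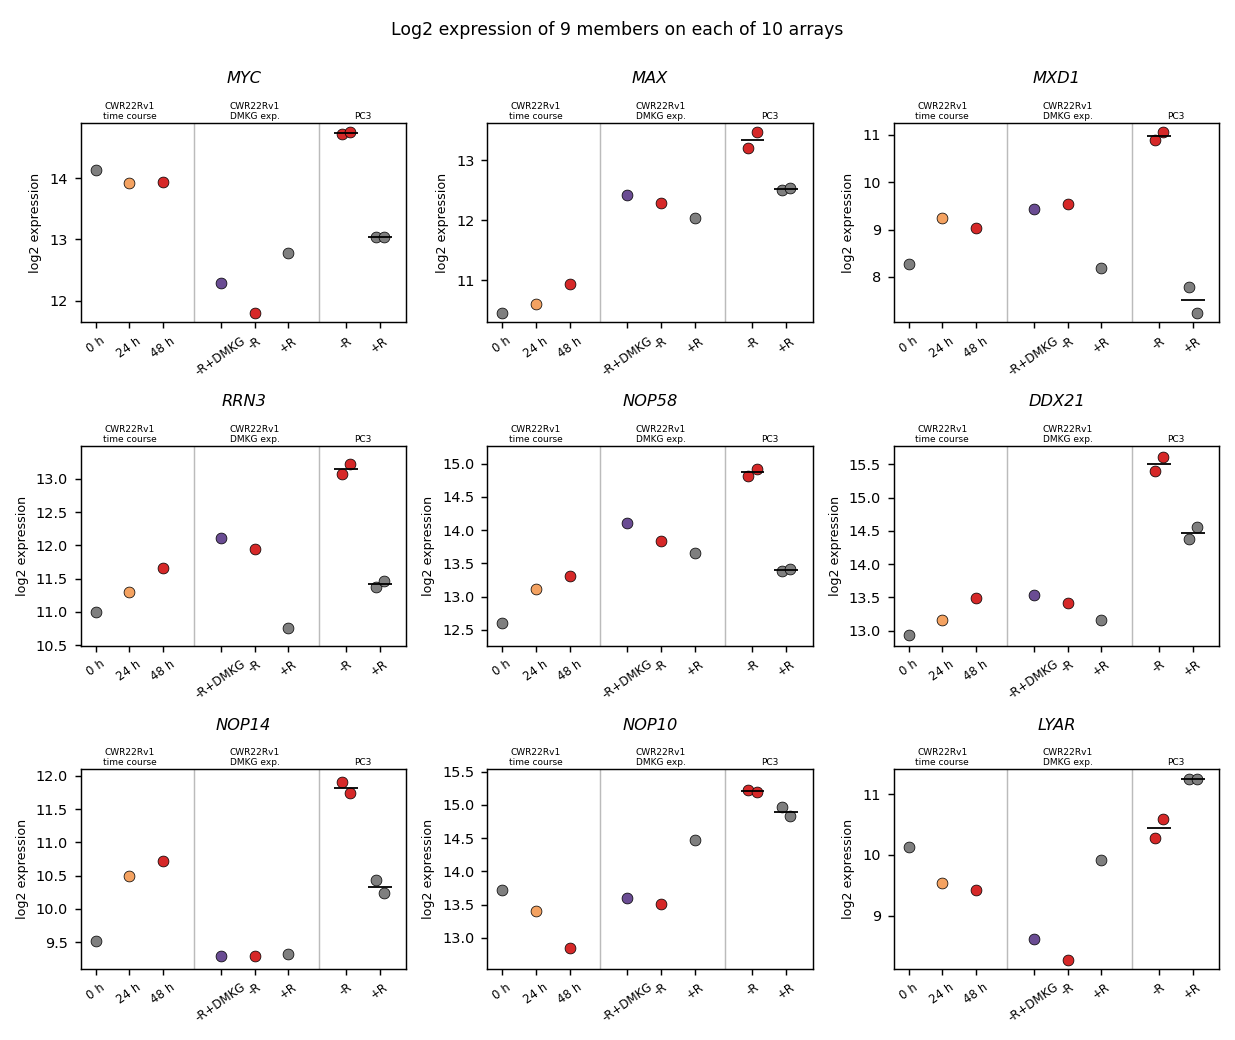
Log2 expression of 9 members on each array, by time of starvation in the CWR22Rv1 time course, by condition in the CWR22Rv1 DMKG experiment (-R is arginine-free and +R is control medium) and by condition in PC3 cells, where bars are means of 2 arrays. Levels are to be compared only inside each of a panel's 3 sections, as a common scale across them is not documented. MYC is at 14.72 and 14.75 in starved PC3 cells, above 13.04 and 13.04 in control PC3 cells, while in the DMKG experiment it is 11.79 in starved cells, under 12.78 in control cells.

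**Figure D3:**
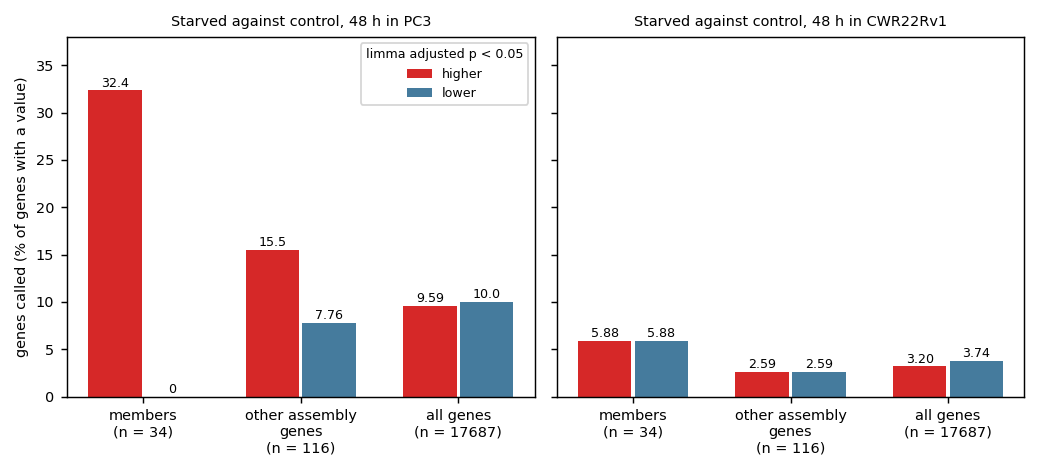
Share of genes that rose (red) or fell (blue) at 48 h by limma at an adjusted p under 0.05, in percent, for the 34 members, 116 other ribosome assembly genes and all 17687 genes, in PC3 (left) and CWR22Rv1 cells (right). In PC3 cells 32.4% of members rose and 0 fell, and in CWR22Rv1 cells 5.88% went each way.

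In CWR22Rv1 cells starved for 48 h the members did not move together. By limma at an adjusted p under 0.05, 2 of 34 rose (MXD1 and RRN3) and 2 fell (LYAR and NOP10), 5.88% each way, against 3.20% and 3.74% of all genes, so the shares were near the background. The median log2 difference was -0.15, against 0.02 over all genes, with 13 positive and 21 negative. Without the adjustment, 4 members were higher and 8 lower at a p under 0.05, with no share of all genes at that threshold given. The sign was the same in both experiments for 22 members, 8 positive and 14 negative. Without the starved or the control array of the DMKG experiment the median was -0.04, with 17 of 34 positive. With the control or the 48 h starved culture of the time course dropped instead, the members' median was -0.22. In the DMKG experiment itself, starved minus control was positive for 10 members and negative for 23. Of all genes 39.2% were positive there and 21.6% exactly equal. The downward lean of the members at 48 h thus lay in the DMKG experiment and was not seen at 48 h of the time course. At 24 h of the time course 20 of 34 members were negative, with a median of -0.13 against 0.01 over all genes. The 48 h difference of the time course sets a 48 h culture against a control of 24 h, and the part of time in culture was not tested. All 4 luminal markers measured (KLK2, KLK3, TMPRSS2, HOXB13) were lower in starved cells of the DMKG experiment, with a median of -2.33. Their median in the time course was -0.76. There KLK2, KLK3 and TMPRSS2 lay under the 95th percentile of the negative controls at 0 and 48 h, as they did on the starved array of the DMKG experiment. HOXB13 was 10.16 at 0 h and 9.04 at 48 h. By limma HOXB13 fell by 1.65 (adjusted p = 0.0145) and KLK2 by a fitted 1.96 (0.0267), with 3 of the KLK2 values compared under that percentile. Of 4 epithelial markers only KRT18 passed, rising by 0.90 (0.0325). Their part in the members' values was not tested.

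MYC mRNA in CWR22Rv1 cells did not pass the test (difference -0.59, standard error 0.22, adjusted p = 0.161). It measured 14.13, 13.93 and 13.93 at 0, 24 and 48 h of the time course. In the DMKG experiment it measured 12.29 in starved cells with DMKG, 11.79 in starved cells and 12.78 in control cells, so the difference at 48 h was -0.20 in the time course and -0.99 in the DMKG experiment. MAX was at 0.37 (adjusted p = 0.328). MXD1 measured 8.28, 9.24 and 9.04 at 0, 24 and 48 h, and 9.43 in starved cells with DMKG, 9.54 in starved cells and 8.19 in control cells, a rise of 1.05 at 48 h (standard error 0.24, adjusted p = 0.0417). The antagonist of MYC was thus higher after starvation on every starved array of both lines.

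RRN3 rose by 0.92 in CWR22Rv1 cells (standard error 0.19, adjusted p = 0.0309), measuring 11.00, 11.30 and 11.67 at 0, 24 and 48 h, and 12.11 in starved cells with DMKG, 11.94 in starved cells and 10.76 in control cells. The other 3 polymerase I genes did not pass, with POLR1B at -0.58 near the negative controls and POLR1A at -0.75 in the time course and 0.16 in the DMKG experiment. LYAR measured 10.13, 9.54 and 9.42 at 0, 24 and 48 h, and 8.61 in starved cells with DMKG, 8.27 in starved cells and 9.92 in control cells. It fell by 1.18 (standard error 0.25, 2.27-fold, adjusted p = 0.0302), with a difference of -0.71 in the time course and -1.65 in the DMKG experiment. NOP10, the small protein that joins the H/ACA particle's core, measured 13.72, 13.40 and 12.85 at 0, 24 and 48 h, and 13.61 in starved cells with DMKG, 13.51 in starved cells and 14.48 in control cells. It fell by 0.92 (standard error 0.17, adjusted p = 0.0211), with nearly the same size, -0.87 and -0.96, in the time course and the DMKG experiment.

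The subunit factors gave no call in CWR22Rv1 cells. The 8 small-subunit factors ranged from -0.77 for UTP20 to 0.67 for RRP12, which was under the 95th percentile of the negative controls here too, and the 9 large-subunit factors from -0.53 for GRWD1 to 0.32 for PES1. All 9 large-subunit factors were lower in starved than in control cells of the DMKG experiment, while 5 of 9 were higher in the time course. NOP14 was at 1.19 in the time course, with 10.72 at 48 h and 9.52 at 0 h, and at -0.03 in the DMKG experiment, with 9.29 in starved and 9.32 in control cells, so its 2 experiments did not give the same picture. NCL was at -0.18 in the time course and -0.98 in the DMKG experiment, and NOP58 was at 0.70 and 0.18.

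The 4 CWR22Rv1 calls rested on few arrays. Calls over all genes also fell when any 1 of the 4 arrays compared or of the PC3 arrays was left out. Nearly none of all genes was called without the starved or the control array of the DMKG experiment, so these losses are not particular to the members. When the time course lost its 0 h or its 48 h array, 0 members rose and LYAR alone fell (difference -1.65), with NOP10 at adjusted p = 0.087 from limma, MXD1 at 0.097 and RRN3 at 0.056. Without the starved or the control array of the DMKG experiment no member was called, with NOP10 at -0.87 (adjusted p = 0.128), LYAR at -0.71 (0.203), MXD1 at 0.76 (0.278) and RRN3 at 0.67 (0.194). Without a PC3 array, which adds only to the estimate of spread, NOP10 kept its call, LYAR (0.052 to 0.057) and RRN3 (0.057) did not, and MXD1 lost it without either starved PC3 array (0.071).

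**Figure D4:**
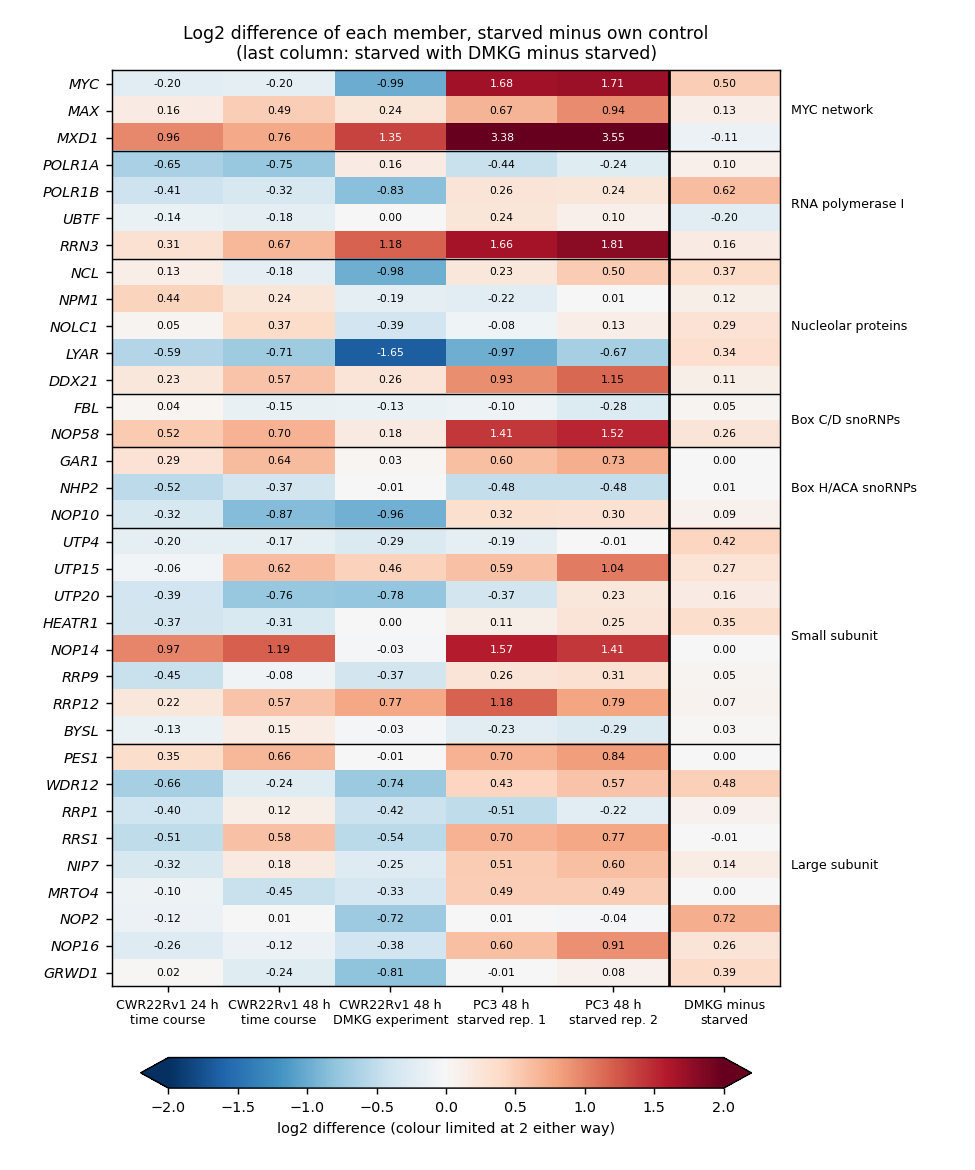
Log2 difference of each of 34 members, starved minus the control of its own experiment, grouped by role (PC3 columns are each starved array minus the mean of 2 control arrays; the last column is starved with DMKG minus starved). Red is higher and blue is lower, and MYC shows -0.20 and -0.99 in CWR22Rv1 cells at 48 h, against 1.68 and 1.71 in PC3 cells.

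After 24 h of starvation no gene was called in CWR22Rv1 cells by limma (0% of all genes in either direction, although limma's trend and robust options gave 41 rises and 50 falls, and leaving out the 0 h array 25 and 9, with no member among them), where a p under 0.05 without adjustment was reached by 1 higher and 2 lower members. The unadjusted count has no share of all genes beside it. The plain difference between the 24 h and the 0 h array was positive for 14 members and negative for 20, with a median of -0.13 and a range of -0.66 to 0.97. The largest were NOP14 (0.97) and MXD1 (0.96), and the lowest were WDR12 (-0.66) and POLR1A (-0.65). For 25 of 34 members the sign at 24 h was that at 48 h of the same time course, with which it shares the 0 h array.

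DMKG was added to ask whether α-ketoglutarate would restore expression in starved cells. No gene was called between starved cells with and without DMKG (0% of all genes in either direction), and 0 members passed even at an unadjusted p under 0.05. The arrays differed little. The member differences, starved with DMKG minus starved, ran from -0.20 to 0.72 with a median of 0.12. They were positive for 28 members and negative for 3, with 3 exactly 0, whereas 36.1% of all genes were positive and 26.3% exactly equal. This lean rested on 1 array of each condition. Without the starved array, with the time course setting the 48 h effect, 12 of 34 fitted differences were positive with a median of -0.07. With no term for the experiment it was 13 of 34 with a median of -0.20. Both fits draw on the other experiment, so they cannot tell whether the lean depends on that starved array. The largest plain differences between the arrays were NOP2 (0.72), POLR1B (0.62), MYC (0.50), WDR12 (0.48) and UTP4 (0.42), of which NOP2 and POLR1B lay near the negative controls. For MYC the value with DMKG, 12.29, lay between 11.79 in starved and 12.78 in control cells. LYAR with DMKG (8.61) lay nearer to starved cells (8.27) than to control cells (9.92), and so did MXD1 (9.43, against 9.54 in starved and 8.19 in control cells) and RRN3 (12.11, against 11.94 and 10.76). With DMKG 11 members were above the control array and 20 below, with a median of -0.08. A single array of each condition allows no more than these values.

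The response of the cell lines to starvation at 48 h differed by test for 3 of 34 members, all higher in PC3 than in CWR22Rv1 cells (8.82%, where 1.97% of all genes were higher and 2.43% lower). For MYC the effect was 1.70 in PC3 and -0.59 in CWR22Rv1 cells, a difference of 2.29 (standard error 0.31, adjusted p = 0.00824 from limma). For MXD1 it was 3.46 in PC3 and 1.05 in CWR22Rv1 cells, a difference of 2.41 (standard error 0.35, adjusted p = 0.0109), so the gene rose in both lines and by more in PC3, where its control level was under the 95th percentile of the negative controls and the size is a fitted value only. For NOP10 it was 0.31 in PC3 and -0.92 in CWR22Rv1 cells, a difference of 1.23 (standard error 0.24, adjusted p = 0.031). The median difference of all members was 0.48, against 0.00 over all genes, with 28 positive. At an unadjusted p under 0.05, for which no share of all genes is given, 11 members passed. Of the 9 members called in PC3 but not in CWR22Rv1 cells, only MYC passed this test, so for the other 8 the lines were not shown to differ. When an array of the 48 h comparisons was left out, fewer of all genes passed as well. Without the starved or the control array of the DMKG experiment no member passed, with MYC at 1.90 (adjusted p = 0.051), MXD1 at 2.70 (0.056) and NOP10 at 1.18 (0.107). Without either array of the time course at 0 or 48 h only MYC passed, with MXD1 at 2.12 (0.064) and NOP10 at 1.27 (0.082). Without PC3 starved replicate 2 again only MYC passed, with MXD1 at 0.052, and NOP10 was lost without any 1 of the 4 PC3 arrays (0.088 to 0.110).

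**Figure D5:**
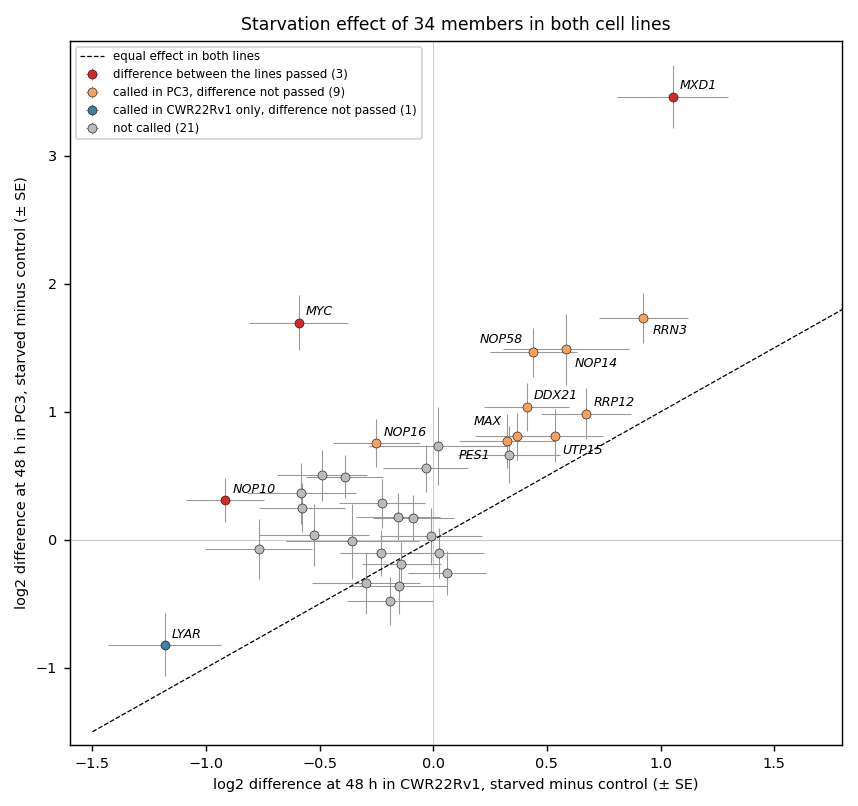
Log2 effect of 48 h of starvation on each of 34 members, in CWR22Rv1 cells on the horizontal and in PC3 cells on the vertical axis, with standard errors of the fit as bars and equal effects on the dashed line. Red points passed the test of the difference between the lines (MYC, MXD1, NOP10), orange points were called in PC3 cells without passing it and the blue point is LYAR, which fell in CWR22Rv1 cells.

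A wider list of 124 other assembly genes was set beside the members, of which 116 had a value. In PC3 cells 18 of them rose (15.5%) and 9 fell (7.76%), with a median of 0.14, where 9.59% of all genes rose and 10.0% fell, so the share of falls was under the background. The 3 large-subunit genes with the smallest p act late in its assembly and rose, EIF6, which keeps the subunits apart, by 1.55 (standard error 0.18, adjusted p = 0.00114), SBDS, which helps evict EIF6, by 1.54, and RSL24D1, a placeholder for a ribosomal protein, by 1.66. UTP25 rose by 1.15. IMP3, a small-subunit processome protein, fell by 1.78 (standard error 0.17, adjusted p = 0.000487), and RRP36 fell by 1.31. In CWR22Rv1 cells 3 rose and 3 fell (2.59% each way, against 3.20% and 3.74% of all genes), with a median of -0.02. IMP3 fell by 1.40, LTV1 by 0.93 and NLE1 by 1.11, while RSL24D1 rose by 1.52, EIF6 by 0.77 and EXOSC1 by 1.70. NLE1 lay under the 95th percentile of the negative controls on 1 of the arrays compared. IMP3 fell and RSL24D1, EIF6 and EXOSC1 rose in either line, and only NLE1 differed between the lines by test (1.49, adjusted p = 0.0309). The rises of EIF6, SBDS, RSL24D1 and UTP25 and the falls of IMP3 and RRP36 in PC3 cells held without any array, while the total there was 5 to 20 rises and 3 to 9 falls as arrays were left out, lowest for the rises without starved replicate 2. None of the 6 CWR22Rv1 calls remained without the starved or the control array of the DMKG experiment, where nearly none of all genes was called. NLE1's difference between the lines lost its call on leaving out 7 of the 10 arrays.

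By group, PC3 cells gave 9 rises (18.75%) and 4 falls (8.33%) among 48 other small-subunit genes. Among 45 large-subunit genes they gave 7 rises (15.6%) and 3 falls (6.67%). The share each way was 9.09% for 11 other polymerase I genes and 8.33% for 12 exosome genes. Of all genes 9.59% rose and 10.0% fell, so these last shares and the falls were near or under the background. Of 11 other polymerase I genes, TAF1A, a subunit of the selectivity factor SL1, rose by 1.36. Its partner TAF1B fell by 0.76, with 1 PC3 array under the 95th percentile of the negative controls. POLR1F, at 0.68, did not pass. POLR1G was at -0.83 in CWR22Rv1 cells and did not pass there. Of 12 exosome genes, which trim rRNA precursors, EXOSC1 rose by 0.82 and EXOSC3 fell by 0.70 in PC3 cells, and EXOSC7, at 0.66, did not pass. TAF1B, EXOSC1 and EXOSC3 lost their call in PC3 cells without any 1 of the 4 PC3 arrays (adjusted p = 0.060 to 0.164 from limma), and TAF1A without starved replicate 2 (0.053).

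The rest of the MYC network was mixed. Among 9 other measured genes PC3 cells gave 2 rises (22.2%) and 1 fall (11.1%), against 9.59% and 10.0% of all genes. CWR22Rv1 cells gave 0 calls, against 3.20% and 3.74% of all genes. There limma's p without adjustment was under 0.05 for 1 higher and 1 lower gene, with no share of all genes given. MXI1, a second MAX-binding antagonist, measured 12.29 and 12.42 in starved PC3 cells, against 10.22 and 10.06 in control PC3 cells. It rose by 2.21 (standard error 0.21, adjusted p = 0.000442), and by more than in CWR22Rv1 cells (difference 1.47, adjusted p = 0.0337), a call lost without any 1 of the 4 PC3 or of the 4 CWR22Rv1 arrays of the 48 h comparison (0.059 to 0.121). MGA, another MAX partner, rose by 1.19. MXD3, a relative of MXD1, fell by a fitted 1.66, with 3 of its PC3 arrays under the 95th percentile of the negative controls. The MXD3 call was lost without control replicate 1 (-1.35) or starved replicate 2 (-1.21).

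Genes known as targets of MYC outside ribosome assembly were looked at beside it. Of 18 measured genes that MYC is known to induce, 1 rose and 1 fell in PC3 cells (5.56% each way, under the 9.59% and 10.0% of all genes), with a median of 0.04. HK2, a hexokinase, rose by 0.91, and CAD, which starts pyrimidine synthesis, measured 8.90 and 8.73 in starved PC3 cells, against 10.11 and 10.11 in control PC3 cells, and fell by 1.29 (adjusted p = 0.00269). The CAD value of 8.73 lay just under the 95th percentile of the negative controls on its array (8.75). HSPE1, at -0.68, did not pass. In CWR22Rv1 cells SRM, spermidine synthase, fell by 0.80 and was the only call (5.56%, where 3.74% of all genes fell), with a median of -0.28. Of 5 genes that MYC is known to repress, 4 rose in PC3 cells (80%, where 9.59% of all genes rose), where MYC rose too. GADD45A rose by 3.41, CDKN2B by 1.32 and CDKN1A at least 2.66-fold, its control level lying under the 95th percentile of the negative controls. NDRG1 rose by a fitted 1.08, with 3 of its PC3 arrays under that percentile. In CWR22Rv1 cells 2 rose (40%, where 3.20% of all genes rose), CDKN1A by 1.69 and GADD45A by 1.69, GADD45A with 1 array under the 95th percentile of the negative controls. On leaving out arrays HK2 lost its call without any 1 of the PC3 arrays (adjusted p = 0.061 to 0.064), NDRG1 without either PC3 control array or starved replicate 1 (0.067 to 0.091), SRM without any 1 of 8 arrays (0.059 to 0.166), CDKN1A in CWR22Rv1 cells without any 1 of the 4 arrays compared (0.080 to 0.102) and GADD45A there without the starved or control array of the DMKG experiment (1.08, 0.101). CDKN1A and GADD45A are also known to respond to stress by other routes. RPL11 and MDM2, the ribosomal protein and the ligase that link nucleolar stress to p53, passed in neither line, at -0.20 and 0.11 in PC3 and -0.48 and 0.57 in CWR22Rv1 cells.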

How the data were processed

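Clariom S human arrays (Affymetrix) were run on 10 samples. The log2 values were deposited by the authors, who made them with the Transcriptome Analysis Console. The sources used here do not give its version, background correction or normalization. Of 24351 probe sets, 17709 carry a single gene symbol, and for 20 genes with several the one with the highest mean was kept, leaving 17687 genes. Members and lists were chosen with earlier results of these data known, and 6 members (NOP56, DKC1, BOP1, PPAN, GNL3, WDR43) had no value under their symbol.

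All arrays were fitted together with limma 3.58.1 (R 4.3.3), with an intercept each for PC3 cells, the DMKG experiment and the time course and effects of 24 h, of 48 h (shared by both CWR22Rv1 experiments), of DMKG and of starvation in PC3 cells. This left 3 residual degrees of freedom and a prior of 5.09. A lone array is assumed to vary like the others, and plain array differences are printed for 24 h and DMKG. Calls needed a Benjamini-Hochberg adjusted p, taken over the 17687 genes, of under 0.05. The number of arrays limits the precision. The fit was tested on simulated data, and 21 other settings were tried.

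Genes named were MYC, MAX and MXD1, the members of each role with the 2 smallest p in PC3 and the smallest in CWR22Rv1 cells, members passing the difference test and, of each further list, the 3 smallest p in PC3 and the smallest in CWR22Rv1 cells. Other members, LTV1, NLE1, NDRG1 and the 30-base sites were added after values were seen. The dose of DMKG is that of the labels. Protein sequences were not used here. Figures were drawn in matplotlib 3.10.9 (Python 3.11.15).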

Additional observations from a re-analysis of the deposited data

Results flagged for a closer look

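For 3 members the effect of 48 h of starvation differed between the cell lines by a contrast of the limma model. For MYC the effect in PC3 cells exceeded that in CWR22Rv1 cells by 2.29 on the log2 scale (adjusted p = 0.00824), with a positive difference in PC3 cells and a negative one in both CWR22Rv1 experiments. For MXD1 it exceeded it by a fitted 2.41 (adjusted p = 0.0109), with a rise in both lines. For NOP10 it exceeded it by 1.23 (adjusted p = 0.031), with 0.31 in PC3 cells, which did not pass the test there, and a fall by 0.92 in CWR22Rv1 cells. CHAC1 and TRIB3 were higher in the time-course control than in the DMKG control as deposited, and without that array MYC was the only one of the 3 to pass. The part of that array in the difference was not tested further. No group had the 4 arrays needed to look for an array far from the others.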

How the results depend on the processing

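The number of members that rose in PC3 cells was 11 and lay between 10 and 13 in the other adjusted settings with all arrays. The exceptions were 2 members with no term for the CWR22Rv1 experiment, where 1.38% of all genes rose, and 0 by the methods' t-test after Benjamini-Hochberg adjustment. That t-test gave 14 unadjusted, with no share of all genes at that threshold given. The number by limma was lower on leaving out any PC3 array, as was the share of all genes that rose. The number that fell there, 0, was 1 after quantile normalization, without the lowest 30% of genes, with each cell line on its own, with limma's trend and robust options and with a separate effect in each CWR22Rv1 experiment, 2 by the unadjusted t-test, and 0 to 1 on leaving out each array. In CWR22Rv1 cells the 2 rises became 0 with each line on its own, with no term for the experiment, with the replicate block in PC3 cells and by the adjusted t-test, 1 with separate effects and 1 by the unadjusted t-test, and 0 to 2 on leaving out each array. The 2 falls became 0 with each line on its own, with no term and by either t-test, 1 with the replicate block, and 0 to 2 on leaving out each array. The 3 members that differed between the lines were 6 with trend and robust options, 0 with no term, and 0 to 3 on leaving out each array. Quantile normalization gave 4 members that differed between the lines. With each line on its own or with no term, 0 of 17687 genes were called at 48 h in CWR22Rv1 cells. With no term, none of all genes differed between the lines either. Calls at 24 h and with DMKG stayed at 0 for members in all settings run. Replicate numbers in PC3 cells did not pair the arrays (correlation of deviations -0.027 over 17687 genes), and the replicate block gave 10 rises there and 2 members that differed between the lines. Of the other assembly genes the 18 rises in PC3 cells became 27 with trend and robust options, 3 with no term and 11 with the replicate block, and the 9 falls 2 with no term, while the 3 rises and 3 falls in CWR22Rv1 cells became 7 and 7, 5 and 6 with separate effects, and 0 and 0 with each line on its own or no term. Over 67 effects of single genes, 978 of 1268 pairs of effect and setting kept their side of the threshold, 290 lost the call and 0 changed direction. No scaling moved the median of all genes by over 0.1. The cause of these changes was not tested, apart from the fewer arrays. A value already near the negative controls leaves no room to fall.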
